A study of Mus musculus with 12 samples.

Results

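The early neural fate genes described here are *Sox1*, *Pax6*, *Nes*, *Zic1*, *Sox11*, *Sox21*, *Hes5* and *Neurog2*, which were chosen by name and are 8 of the 22911 genes measured by RNA-Seq. The cells were mouse epiblast-like cells (EpiLCs), obtained by culturing embryonic stem cell (ESC) lines for 48 h with 10 ng/ml FGF2 and 20 ng/ml Activin A on fibronectin at 15 µg/ml. The groups were female wild type (fWT), female knockout (fKO), male wild type (mWT) and male knockout (mKO) for *Kdm5c*, an X-linked gene named Smcx in the sample labels, with 3 libraries each. In the notation of the study the genotypes are Kdm5c fl/fl, Kdm5c Δ/Δ, Kdm5c flY and Kdm5c ΔY, so the controls carry floxed alleles and the knockouts carry the product of Cre recombination of the same allele, and the labels give the strain as C57BL/6J, while the methods of the study state a mixed background for the floxed line. The methods of the study state 3 independent ESC lines for each genotype, and the values of single libraries used here cannot be tied to those lines.

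The first signs of neural fate in the mouse epiblast are changes of transcription factor genes. SOX1 is a SOXB1 factor and one of the earliest markers of neuroectoderm, SOX11 is a SOXC factor of progenitors and young neurons, and SOX21 is a SOXB2 factor that opposes SOXB1 factors. PAX6 and ZIC1 are a homeodomain and a zinc-finger factor of the neural plate, *Nes* encodes the intermediate filament nestin of neural stem cells, HES5 is an effector of Notch signalling that holds progenitors undifferentiated, and NEUROG2 is a proneural factor that drives neuronal differentiation. KDM5C is a demethylase that removes methyl groups from lysine 4 of histone H3. EpiLCs are a model of the formative epiblast, the state between naive pluripotency and the choice of germ layers, so these genes are read here before neural differentiation proper.

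All 8 genes are rows of both tables, which hold the mean normalized count of each group, that is, reads divided by the size factor of their library and averaged over 3 libraries. The reads of single libraries were worked out from these means, and the libraries of a group are called A, B and C by falling size factor, because they carry no sample names. Between 5516216 and 11092731 reads were recovered per library. In mm9, the build of the study, Gencode vM1 places *Pax6* at chr2:105509053-105543317 (+ strand), *Nes* at chr3:87775000-87784373 (+) and *Neurog2* at chr3:127336054-127338549 (+). *Hes5* lies at chr4:154335032-154336480 (+), *Zic1* at chr9:91252896-91260648 (-), *Sox11* at chr12:28025562-28027574 (-) and *Sox21* at chr14:118632454-118636252 (-). *Sox1* is not named in that annotation, and its promoter falls in an intron of the longer transcript *Gm5607* on the same strand, at chr8:12385771-12436729.

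The 250 bases upstream of the transcription start are shown for *Sox1*, *Sox11*, *Nes* and *Sox21*, since these are the members whose level differed most clearly with the genotype. The starts are those of RefSeq on GRCm38.p6, and each sequence matched its mm9 chromosome exactly once, at chr8:12395269-12395518 (+) for *Sox1*, chr12:28027584-28027833 (-) for *Sox11*, chr3:87774765-87775014 (+) for *Nes* and chr14:118636253-118636502 (-) for *Sox21*. Capitals mark, on either strand, the CCAAT box. They also mark the core of the GC box, which was searched as GGGCGG. The letters of the TATA box, searched as TATAAA, would be marked as well.
Sox1: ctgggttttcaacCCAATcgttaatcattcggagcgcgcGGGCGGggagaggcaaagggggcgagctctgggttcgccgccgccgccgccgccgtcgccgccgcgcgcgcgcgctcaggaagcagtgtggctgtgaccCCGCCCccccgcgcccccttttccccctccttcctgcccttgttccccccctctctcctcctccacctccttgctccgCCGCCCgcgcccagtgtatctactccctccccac
Sox11: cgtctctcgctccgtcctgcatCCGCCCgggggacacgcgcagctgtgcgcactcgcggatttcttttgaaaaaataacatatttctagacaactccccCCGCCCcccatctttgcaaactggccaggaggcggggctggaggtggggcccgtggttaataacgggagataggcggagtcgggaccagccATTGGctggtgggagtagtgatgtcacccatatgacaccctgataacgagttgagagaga
Nes: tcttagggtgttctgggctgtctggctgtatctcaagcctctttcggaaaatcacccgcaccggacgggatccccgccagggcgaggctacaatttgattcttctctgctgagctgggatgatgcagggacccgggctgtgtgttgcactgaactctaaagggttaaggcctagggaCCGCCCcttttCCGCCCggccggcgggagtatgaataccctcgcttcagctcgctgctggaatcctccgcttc
Sox21: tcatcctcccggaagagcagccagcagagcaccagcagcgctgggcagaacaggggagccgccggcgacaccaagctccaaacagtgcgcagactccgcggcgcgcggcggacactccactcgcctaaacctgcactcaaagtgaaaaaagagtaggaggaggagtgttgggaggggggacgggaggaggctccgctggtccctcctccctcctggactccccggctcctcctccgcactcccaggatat

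*Sox1* held 1 CCAAT box and 3 GC box cores, *Sox11* 1 CCAAT box and 2 GC box cores, and *Nes* 2 GC box cores that begin 73 and 62 bases before the start. *Sox21* held none of the 3 motifs. *Neurog2*, the other member called higher in fKO, held 2 GC box cores. *Pax6* has a promoter with 1 CCAAT box and another with none of the 3 motifs. The TATA box was in none of the 4 stretches shown. Among 32851 mouse promoters of the same length, 33.8% held the CCAAT box, 32.7% the GC box core and 12.4% the TATA box. The *Sox1* stretch held 29 CpG dinucleotides, those of *Sox11* and *Sox21* 17 each and that of *Nes* 15, against a median of 6 over all promoters. These matches describe the letters of the windows.

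Libraries that stood apart are named before the results. Over 14132 genes with a mean of at least 10 normalized counts, the libraries of the female groups correlated at r = 0.991 to 0.993 within their group. Their spread was small, for example with an SD of 28.1 at a mean of 3134 for *Pou5f1* in fKO and of 19.1 at 3000 for *Cubn*. For these 2 examples, on 3130 to 3996 and 2959 to 3856 reads, the SD is below what counting of reads alone would give. The female p-values from limma rest on the small spread between libraries, and whether it holds the variation between ESC lines was not tested. The library mKO A correlated at 0.946 and 0.948 with mKO B and C, which correlated at 0.991 with each other. The library mWT B correlated at 0.972 and 0.969 with mWT A and C, which correlated at 0.99. In mWT A and C, 8133 and 6277 reads fell on 4982 genes that were near 0 outside mWT, compared with 324 to 736 reads in each other library, or 1.63 and 1.26 reads a gene against 0.148 at most. Values of a few reads in mWT A and C are at that level.

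The labels were read against *Kdm5c* first. Its normalized counts were 2336, 2429 and 2315 in fWT A, B and C and 1406, 1447 and 1505 in fKO, a log2 change of -0.70 (SE 0.05, limma adjusted p = 4.53e-09). In males they were 2195, 2110.1 and 2371 in mWT and 1897, 1943 and 1976 in mKO, a log2 change of -0.20 (SE 0.10, limma adjusted p = 0.271). The knockout removes part of the gene, so a count over the whole gene does not check the labels. All 7 formative epiblast markers and all 5 core pluripotency markers were detected in every group.

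In females, *Sox1*, *Sox11* and *Nes* were lower in the knockout, by 8.43-fold, 2.68-fold and 1.28-fold, and *Sox21* was higher by 2.16-fold, in a comparison in which 24.7% of all genes tested were called lower and 25.4% higher. *Pax6*, *Zic1* and *Hes5* did not pass the test. In males, none of the 8 genes passed with all libraries, where 7.80% of all genes did, and 1 knockout library, mKO A, stood apart: its *Sox1*, *Nes* and *Pax6* were above both other mKO libraries and above all mWT libraries. Without it, *Sox1*, *Sox11* and *Nes* were called lower in the male knockout. Each passed in only 1 of the 6 male fits without 1 library. The library mKO A held the highest mKO value of each of these genes, so leaving it out lowers the mKO level by itself.

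**Figure D1:**
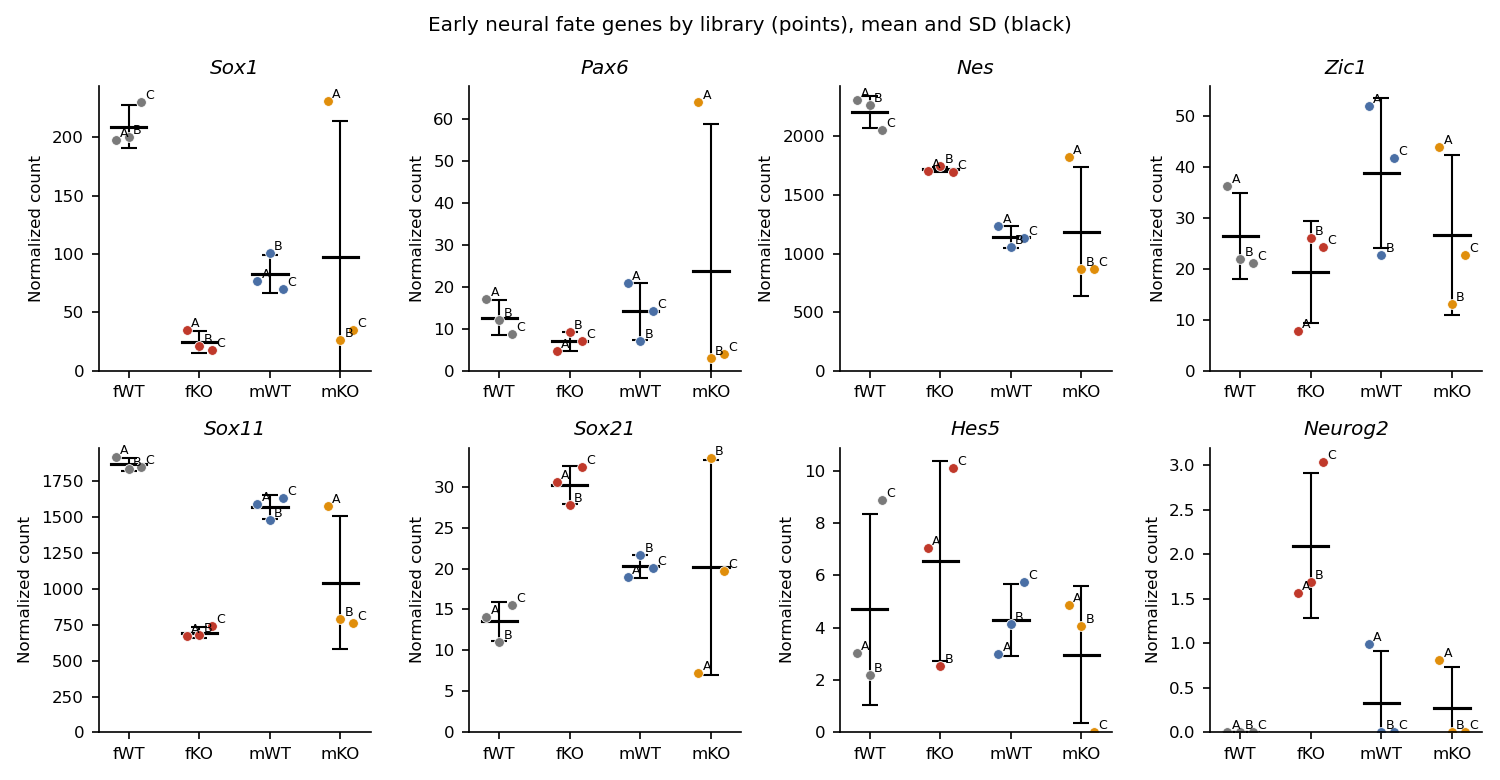
Normalized counts (vertical axes, linear and different for each gene) of the 8 early neural fate genes in the 12 libraries, as points lettered A to C, with the mean and SD of each group of 3 in black (SD bars are cut at 0). *Sox1* and *Sox11* are high in all fWT libraries and low in all fKO libraries, and mKO A lies apart from mKO B and C.

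*Sox1* had the largest change among the members with more than a few reads. Its normalized counts were 197, 199.8 and 230.1 in fWT A, B and C and 35.3, 21 and 18.2 in fKO. Every fKO library was below every fWT library. The group means were 209 ± 18.3 and 24.8 ± 9.15 normalized counts (SD, n = 3), and the log2 change was -3.08 (SE 0.20, limma adjusted p = 4.6e-10). In fits without each library in turn the log2 change lay between -3.35 and -2.89, and all 6 fits passed. The counts rested on 182 to 207 reads in fWT and 18 to 45 reads in fKO.

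*Sox11* gave 1917, 1832 and 1849 normalized counts in fWT and 671, 675 and 739.7 in fKO. The groups did not overlap, and the libraries within each lay close together. The means were 1866 ± 45.0 and 695 ± 38.6 (SD, n = 3), with a log2 change of -1.42 (SE 0.06, limma adjusted p = 9.93e-13). *Sox11* thus had the most precise estimate of the larger changes, on 732 to 1906 reads a library.

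Nestin RNA changed less. *Nes* stood at 2306, 2265 and 2054 normalized counts in fWT and at 1708, 1745 and 1698 in fKO, again without overlap. The means were 2208 ± 135 and 1717 ± 24.8 (SD, n = 3), and the log2 change was -0.36 (SE 0.06, limma adjusted p = 3.15e-05). When the spread was estimated over all 12 libraries, which include the scattered males, the *Nes* change no longer passed (limma adjusted p = 0.235).

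*Sox21* moved the other way. Its normalized counts were 14.1, 11 and 15.6 in fWT and 30.6, 27.8 and 32.3 in fKO, so all fKO libraries were above all fWT libraries. The log2 change was 1.11 (SE 0.27, limma adjusted p = 0.00216), on 10 to 14 reads in fWT and 32 to 39 in fKO. With the spread of all 12 libraries the adjusted p from limma was 0.0638.

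In all, 3 of the 8 members were called lower and 2 higher in fKO at an adjusted p under 0.05, to be read against the 24.7% and 25.4% of the 19572 genes tested in those directions. The median log2 change of the 8 was -0.45, against 0.00 over all genes tested. The second member called higher was *Neurog2*, with 0 reads in each fWT library and 2, 2 and 3 in fKO (limma adjusted p = 0.00457). These reads are within the limit of 3 that a count of 0 allows, so no fold is given, and the level of this proneural gene was at the floor of detection in all 12 libraries.

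The other 3 members had few reads. *Pax6* stood at 17.1, 12.1 and 8.89 normalized counts in fWT and 4.70, 9.26 and 7.07 in fKO, and the libraries overlapped (log2 change -0.77, SE 0.37, limma adjusted p = 0.0996). *Zic1* gave 36.2, 22 and 21.1 in fWT and 7.84, 26.1 and 24.3 in fKO (log2 change -0.55, SE 0.38, limma adjusted p = 0.253). *Hes5* gave 3.02, 2.20 and 8.89 in fWT and 7.05, 2.53 and 10.1 in fKO (log2 change 0.44, SE 0.50, limma adjusted p = 0.517). None of the 3 passed, and the *Zic1* change lay between -0.83 and -0.03 in fits without 1 library. For a single gene an exact permutation test of 3 libraries against 3 cannot go below p = 0.1, which *Sox1*, *Sox11*, *Nes*, *Sox21* and *Neurog2* each reached (two-sided). In these 5 members the groups did not overlap, 3 lower and 2 higher in fKO, as was the case for 27.2% (lower) and 27.6% (higher) of all 19572 genes tested.

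RNA of bulk cultures does not separate cells from levels: fewer cells with a gene on and less RNA per cell cannot be told apart. Markers of another lineage moved with the female result. All 9 primitive endoderm markers fixed for this check were called higher in fKO, and their summed level was 7272 to 7441 normalized counts in fKO against 572 to 639 in fWT. *Gata4*, a defining factor of that lineage, had 60.4 to 78.9 normalized counts in fWT and 813 to 866 in fKO, and *Cubn*, an endocytic receptor of endoderm, 79.5 to 90.0 and 2987 to 3022. None of the 9 was at 0 in any group. Of the 10 naive pluripotency markers 8 were called higher in fKO and 0 lower, with sums of 1369 to 1449 in fWT and 3889 to 4151 in fKO. Of the 7 formative epiblast markers 3 were called higher and 3 lower in fKO, with sums of 8729 to 8938 in fWT and 15219 to 15768 in fKO. Of 7 fibroblast markers 3 were called lower and 0 higher in fKO, with sums of 2253 to 2302 in fWT and 749 to 813 in fKO. The part of these markers in the changes of the neural genes was not tested.

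**Figure D2:**
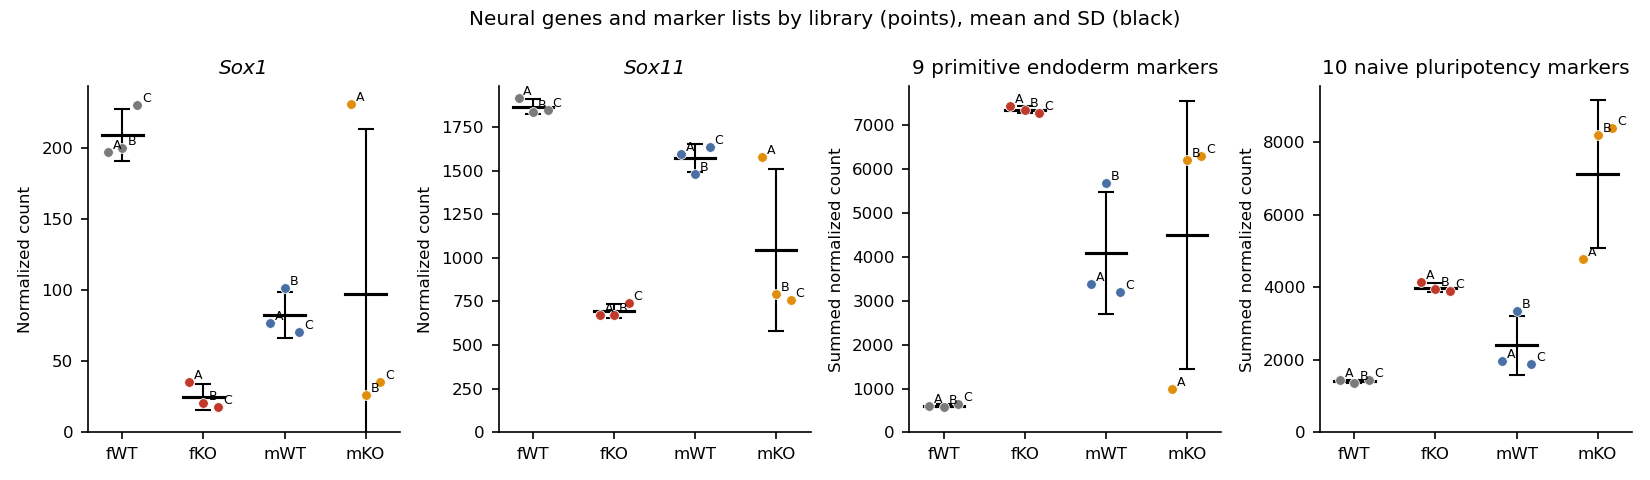
Normalized counts of *Sox1* and *Sox11* (first 2 panels) and summed normalized counts of 9 primitive endoderm and 10 naive pluripotency markers (last 2 panels) in the 12 libraries, with the mean and SD of each group of 3 in black (the SD of *Sox1* in mKO is cut at 0). The endoderm sum is 572 to 639 in fWT and 980 in mKO A, where *Sox1* is 197 to 231, and 6211 and 6299 in mKO B and C, while within mWT library B has both the highest endoderm sum (5692) and the highest *Sox1* (101). Of the sum, *Cubn* alone is 3477 and 3663 in mKO B and C and 2815 in mWT B.

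In males *Sox1*, *Sox11* and *Nes* lay closer together in the wild type than in the knockout. *Sox1* gave 76.8, 101 and 70.4 normalized counts in mWT A, B and C and 231, 26.4 and 35.2 in mKO. *Sox11* gave 1594, 1480.5 and 1635 in mWT and 1578, 792 and 759 in mKO. *Nes* gave 1236, 1052 and 1129.6 in mWT and 1824, 871 and 865 in mKO. In each of the 3 genes mKO B and C lay below every mWT library, and mKO A lay above or within the mWT range.

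The same library set the values of *Pax6*, which stood at 20.9, 7.24 and 14.4 normalized counts in mWT and at 64.1, 3.04 and 4.14 in mKO. *Sox21* had 18.9, 21.7 and 20.1 in mWT and 7.30, 33.4 and 19.7 in mKO, so that mKO A was the lowest of all 12 libraries for the gene that rose in the female knockout. *Zic1* had 51.8, 22.7 and 41.7 in mWT and 43.8, 13.2 and 22.8 in mKO. The library mWT B was here at the level of mKO C. *Hes5* had 3 to 4 reads in each mWT library and 6, 4 and 0 in mKO, and *Neurog2* 1, 0 and 0 reads in both groups, values that touch the floor and, in mWT A and C, the level of stray reads.

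With all libraries, 0 of the 8 members passed in limma, 1 had an unadjusted p under 0.05 and limma voom also called 0, where 7.80% of the 21872 genes tested were called in either direction. The log2 change of *Sox1* was -0.44 (SE 0.67, limma adjusted p = 0.684), that of *Sox11* -0.67 (SE 0.24, limma adjusted p = 0.126) and that of *Nes* -0.03 (SE 0.25, limma adjusted p = 0.944). The median log2 change of the 8 was -0.39. That of all genes was -0.16 in males, and 0.00 for genes with a mean of at least 10.

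Without mKO A, *Sox1* fell by 1.40 on the log2 scale (SE 0.26, limma adjusted p = 0.00534), *Sox11* fell by 1.02 (SE 0.10, limma adjusted p = 0.000169) and *Nes* fell by 0.39 (SE 0.11, limma adjusted p = 0.031). In that fit 10.0% of all genes were called lower and 9.76% higher, and 3 of the 8 members were called lower and 0 higher. *Pax6* had a log2 change of -1.63 (SE 0.58, limma adjusted p = 0.0793) and *Zic1* of -1.04 (SE 0.43, limma adjusted p = 0.126). Leaving out mWT B as well, so that 2 libraries remained on each side, added *Pax6* at -2.01 and *Zic1* at -1.37 (limma adjusted p = 0.00974 and 0.0163). The controls then were mWT A and C, the libraries with stray reads. *Pax6* had 21 and 10 reads in them and 7 in mWT B, and *Zic1* 52 and 29 against 22. Against mWT B alone, also without mKO A, the log2 changes were -0.85 and -0.37. The part of the stray reads was not tested. In the fit without mWT B and mKO A, 25.3% of 21777 genes were called lower and 17.7% higher. Thus 5 of the 8 members were called lower where many more genes were called throughout. Without mWT A and C but with all mKO libraries, which leaves 1 control library that is assumed to vary like the knockouts, limma called none of the 19038 genes, with 2803 at an unadjusted p under 0.05. With mKO A left out as well it called none of 18574, with 6927 at an unadjusted p under 0.05.

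Markers of other cell states moved with these libraries. Library mKO A was also apart in the endoderm markers, with a summed level of 980 normalized counts against 6211 and 6299 in mKO B and C and 3206 to 5692 in mWT, and *Gata4* at 99.0 against 403 and 418. Of the 9 endoderm markers 2 were called lower in mKO with all libraries. Without mKO A 3 were called higher (*Amn*, *Cubn* and *Dab2*) and 4 lower (*Gata6*, *Sox17*, *Sox7* and *Pdgfra*). *Cubn*, at 3477 and 3663 in mKO B and C and 2815 in mWT B, made up a large part of those sums. *Gata6* stood at 212 and 205 in mKO B and C against 296 to 412 in mWT, and *Sox17* at 116 and 111 against 267 to 296. Of the 10 naive markers 5 were called higher and 0 lower in mKO with all libraries, and 8 and 0 without mKO A, with sums of 4776 to 8406 against 1884 to 3347 in mWT. Of the 7 formative epiblast markers 3 were called lower and 0 higher, and 6 and 0 without mKO A (median log2 -1.65, against -0.19 over all genes). Their sums were 9369, 16783 and 9589 in mWT A, B and C and 10235, 6262 and 6480.2 in mKO. The 4 fibroblast markers called higher in mKO are given with the other observations. The part of these markers in the male values of the members was not tested.

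**Figure D3:**
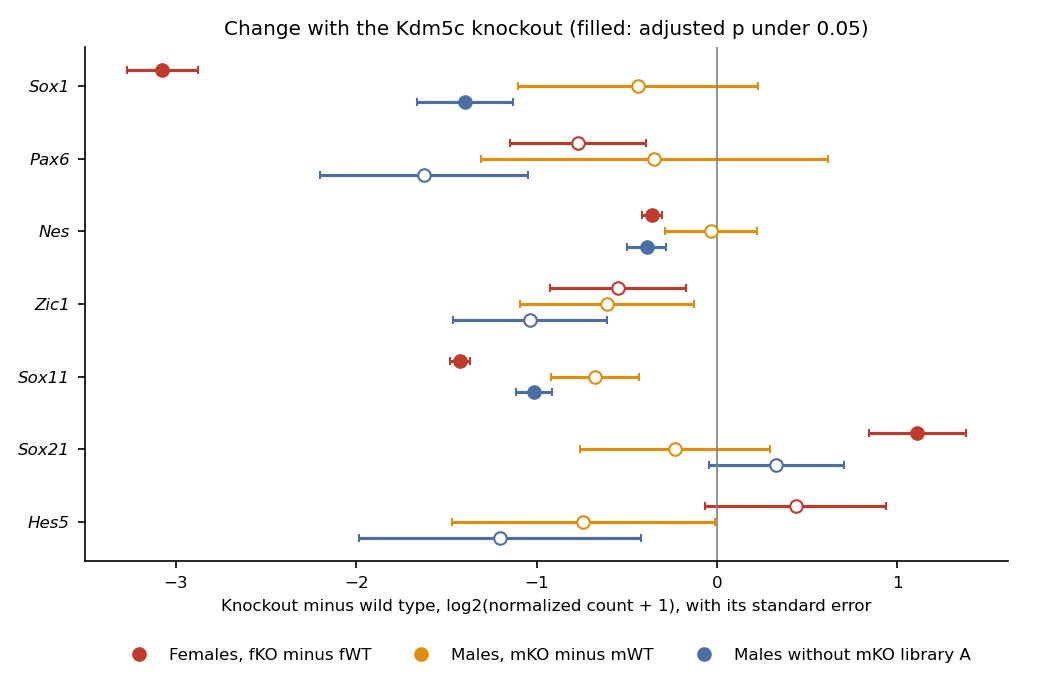
Knockout minus wild type on the log2(normalized count + 1) scale (horizontal axis), with its standard error, for 7 members in females, in males and in males without mKO A. Filled points passed an adjusted p of 0.05, and *Neurog2* is left out because its reads are at the floor. *Sox1* stands at -3.08 in females and at -1.40 in males without mKO A.

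The difference between the sexes was tested as the interaction of sex and genotype over the 12 libraries, in which 21.2% of 22014 genes were called. The change of *Sox1* was larger in females, with a difference of 2.64 on the log2 scale (male change minus female change, SE 0.81, limma adjusted p = 0.0316). Leaving out mKO A, the difference was 1.68 (SE 0.35, limma adjusted p = 0.00187). Only 5 of the 12 fits that left out 1 library passed, with adjusted p from 0.00187 to 0.0767, and the call was lost without fWT A, B or C, without fKO B or C, or without mWT A or C. For *Sox11* the difference was 0.75 (SE 0.28, limma adjusted p = 0.0742), which passed only without an mKO library, at 0.41 without mKO A (limma adjusted p = 0.00755) and at 0.91 and 0.94 without mKO B and C. For *Nes* it was 0.33 (SE 0.29) and for *Sox21* -1.34 (SE 0.60), with adjusted p from limma of 0.46 and 0.131, although *Sox21* passed without mKO B, at -1.81 (limma adjusted p = 0.0328). *Neurog2* was the other member called, on 0 to 3 reads a library.

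The controls of the sexes also differed, in a comparison that shares the fWT libraries with the female one. *Nes* was 1.94-fold lower in mWT than in fWT (log2 -0.96, SE 0.09, limma adjusted p = 3.45e-05), and *Sox1* was 2.53-fold lower (log2 -1.34, SE 0.16, limma adjusted p = 0.000189). For both genes all mWT libraries were below all fWT libraries. *Sox11* was 1.19-fold lower (log2 -0.25, SE 0.08, limma adjusted p = 0.0438), a call held in only 1 of the 6 fits without 1 library, that without mWT B (adjusted p up to 0.171 in the others). Thus 3 of 8 members were called lower and 0 higher in mWT, with 10.7% and 11.2% of 21854 genes called in each direction. The sum of the endoderm markers was 3206 to 5692 in mWT and 572 to 639 in fWT, so this difference moved with the sexes too. Of the 7 fibroblast markers 3 were called lower and 0 higher in mWT, with sums of 560 to 824 against 2253 to 2302 in fWT. The part of both lists was not tested. In order of their means, *Sox1* ran from fWT over mWT to fKO and *Sox11* likewise, while *Nes* ran from fWT over fKO to mWT and *Sox21* from fKO over mWT to fWT. The place of mKO in these orders depended on mKO A. For *Sox1*, mKO A (231) was at the level of fWT, whereas mKO B and C (26.4 and 35.2) lay below every mWT library and within the fKO range of 18.2 to 35.3. For *Sox11*, mKO A lay in the mWT range and mKO B and C lay between mWT and fKO. For *Nes*, mKO A lay between fWT and fKO and mKO B and C below all other libraries, and for *Sox21* the 3 mKO libraries spanned the levels of all other groups.

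The transcript that hosts *Sox1* was looked at because reads of the 2 could be confused. *Gm5607* had 57.3, 49.4 and 47.8 normalized counts in fWT and 66.6, 67.3 and 60.6 in fKO (log2 change 0.33, SE 0.16, limma adjusted p = 0.109). In females it thus did not share the fall of *Sox1*. In males it had 131, 54.8 and 149 in mWT and 66.5, 52.7 and 41.4 in mKO (log2 change -0.95, SE 0.37, limma adjusted p = 0.158). The male change passed in 1 of the 6 fits without 1 library (limma adjusted p = 0.0217). The high mWT values are those of A and C, the libraries with stray reads. The antisense gene *Pax6os1*, which overlaps the start of *Pax6*, had 0 to 3 reads in every library.

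Wider lists of neural genes were read in the same fits. The counts of each list below are to be read against the shares of all genes called. These were 24.7% lower and 25.4% higher in females and 7.80% in either direction in males. In males without mKO A they were 10.0% lower and 9.76% higher. The list of 40 other genes of the neural plate and neural progenitors had 16 called lower and 6 higher of 39 tested in females, with a median log2 change of -0.39. Those lower included *Prom1*, a membrane protein of stem cells, at 486 ± 13.8 normalized counts in fWT and 110.1 ± 15.3 in fKO (log2 -2.14), and *Zfp521*, a zinc-finger factor of early neural differentiation (log2 -1.99). *Pou3f1*, a POU factor of epiblast and neural plate, changed little (log2 -0.17, called, and in 2 of the 6 fits without 1 library). Those higher included *Sox2*, a SOXB1 factor shared by pluripotent and neural cells, at 331 to 363 in fWT and 1670 to 1962 in fKO (log2 2.37), and *Hesx1*, a repressor of the anterior neural plate, at 0 to 2 reads in fWT and 15 to 24 in fKO. *Vim*, the filament vimentin, gave 1099.8 ± 66.5 and 1210.4 ± 81.2 (log2 0.14, limma adjusted p = 0.0843).

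In males 3 genes of this list were called lower and 2 higher of 40, and without mKO A 8 lower and 4 higher. *Pou3f1* fell by 1.53 on the log2 scale with all libraries, and *Vim* rose by 0.60 (limma adjusted p = 0.0382 and 0.0276). *Prom1* showed the split of the knockout libraries, at 413, 308 and 378 normalized counts in mWT and 337, 74.0 and 96.2 in mKO. *Sox2* had a male log2 change of 0.36 (limma adjusted p = 0.249), *Hesx1* of 1.31 (0.406) and *Zfp521* of -0.73 (0.478). *Olig2*, named here after its values were seen, was at 0 to 4.98 normalized counts in 10 libraries and at 246 and 247 in mKO B and C. It encodes a factor of motor neuron and oligodendrocyte progenitors, and it is the point at 7.09 in the plot of the lists.

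The 30 genes of Notch signalling, the pathway upstream of *Hes5*, had 14 called lower and 3 higher in females (median log2 -0.43). The receptors *Notch3* and *Notch2* were lower, *Notch3* at 3516 ± 60.8 normalized counts in fWT and 1472 ± 86.4 in fKO (log2 -1.26) and *Notch2* with a log2 change of -0.47. *Mfng*, a glycosyltransferase that modifies Notch (log2 -2.01), the ligand *Dll4* (-1.49), the ubiquitin ligase *Mib1* (-0.42) and *Hes6*, an antagonist of *Hes1* (-0.43), were lower. The values of *Dll4* rest on 5 to 7 reads a library in fWT, 1 to 3 in fKO and 2 to 3 in mKO. *Rbpj*, the DNA-binding partner of Notch, was higher, at 2644 ± 24.5 in fWT and 5580.4 ± 123 in fKO (log2 1.08). *Notch4* was not called (log2 -0.21, limma adjusted p = 0.329). In males 3 were called lower and 1 higher, and without mKO A 5 lower and 3 higher. *Hes6* fell by 1.79 and *Notch4* rose by 1.35 on the log2 scale (limma adjusted p = 0.0082 and 0.0134). *Rbpj* (0.23), *Notch3* (-0.42), *Notch2* (-0.08), *Mib1* (-0.18), *Mfng* (-0.12) and *Dll4* (-1.76, limma adjusted p = 0.0736) did not pass.

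Of 26 proneural and neuronal genes, 8 were called lower and 3 higher of 25 tested in females (median log2 -0.28). *Gap43*, a growth cone protein (log2 -2.81), the neurofilament *Nefl* (-1.30), *Stmn2*, a regulator of microtubules (-1.23), the proneural factor *Neurod1* (-0.81) and the SOXC gene *Sox12* (-0.64) fell. *Neurog3*, a relative of *Neurog2* known from the endocrine pancreas, was higher (1.78), as was the SOXC gene *Sox4* (0.24). In males 3 were called lower and 1 higher, and without mKO A 8 lower and 1 higher, with medians of -0.71 and -0.91 against -0.16 and -0.19 over all genes. *Nefl* fell by 2.77 and *Neurod1* by 2.99 on the log2 scale in males (limma adjusted p = 0.00143 and 0.0276). *Gap43* (-1.39), *Stmn2* (-0.09), *Sox12* (-0.39), *Sox4* (0.36) and *Neurog3* (1.67) did not pass in males with all libraries.

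The repressor of neuronal genes *Rest* and its partners *Rcor2* and *Rcor3* were called lower in females by small amounts (log2 -0.19, -0.35 and -0.47), and *Rcor1* was not (-0.02, limma adjusted p = 0.875). In males 0 of these 4 passed with or without mKO A, with log2 changes of -0.21, 0.20, -0.30 and -0.22 for *Rest*, *Rcor2*, *Rcor3* and *Rcor1* with all libraries. At an unadjusted p under 0.05 the limma count was 0 with all libraries and 1, *Rcor3*, without mKO A. *Rest* had 3310 ± 116 normalized counts in fWT and 2908 ± 80.9 in fKO.

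The male calls of these lists varied with the libraries fitted, as did those of all genes. With all libraries 1705 genes were called in males, without mKO A 4310 and without mWT B 4691, and without mWT A, mWT C, mKO B or mKO C 413, 333, 595 and 527. Of the named genes, *Nefl* passed in all 6 fits without 1 library and *Hes6* in 5, the exception being that without mWT C. *Vim* and *Notch4* passed in 2, those without mWT B and without mKO A, and *Pou3f1* and *Neurod1* only without mKO A (highest adjusted p from limma 0.137 and 0.13). The progenitor list, with 12 calls without mKO A and 6 without mWT B, had 1 without mWT A or C and 2 without mKO B or C. The Notch list had 8, 5, 1, 0, 1 and 1 calls without mKO A, mWT B, mWT A, mWT C, mKO B and mKO C, and the proneural and neuronal list 9, 7, 1, 1, 3 and 2 in the same order.

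**Figure D4:**
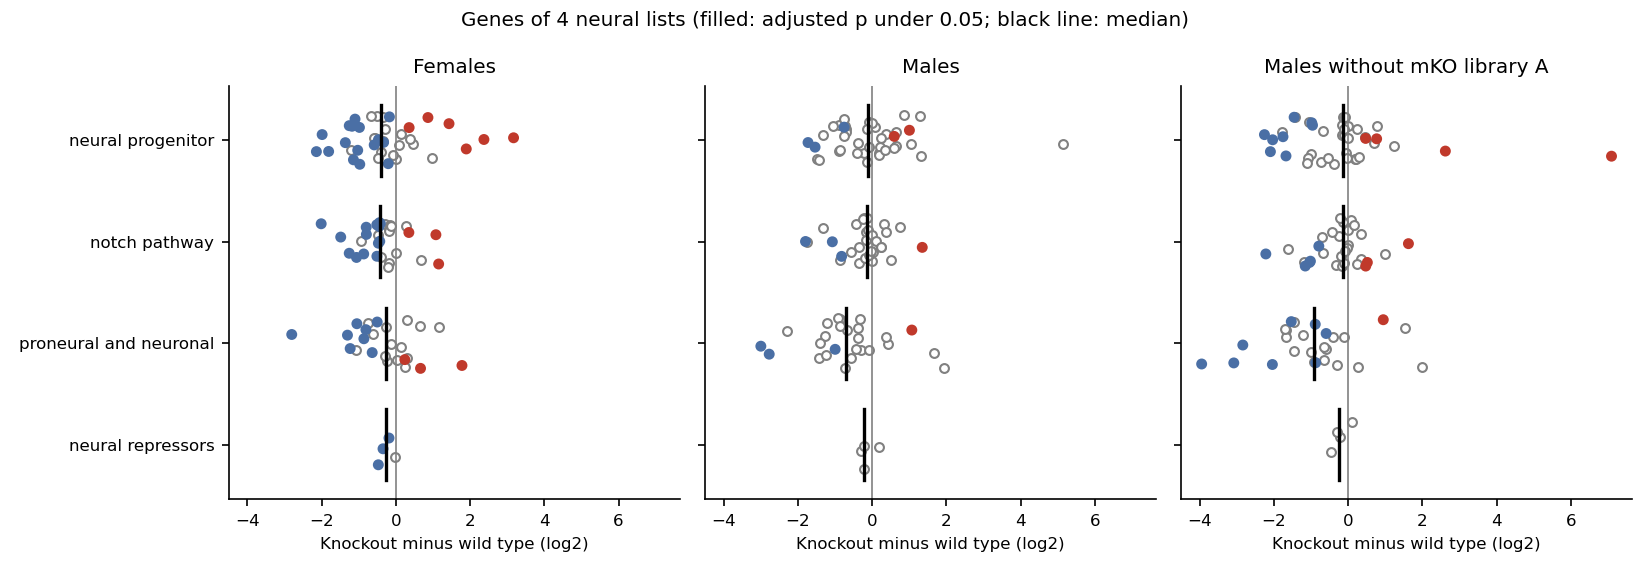
Knockout minus wild type on the log2(normalized count + 1) scale (horizontal axes) for the genes of 4 lists (rows), in females, in males and in males without mKO A. Each point is a gene, filled where the adjusted p was under 0.05 (red higher, blue lower), and the black line is the median of the list, -0.39 for the neural progenitor genes in females and -0.91 for the proneural and neuronal genes in males without mKO A.

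Members and other genes were then matched by their profile over the 12 libraries, on the log2(normalized count + 1) scale and against 14131 genes whose mean was 10 or higher. The points fall into 4 groups and share their size factors, so r is a description. For *Sox1* the closest were *Mta1*, *Nnt* and *Dpysl5* (r = 0.982, 0.97 and 0.961), and for *Sox11* *Kif1a*, *Rap2a* and *Setbp1* (0.988, 0.986 and 0.986). *Mta1*, a subunit of the NuRD complex, had 823 to 896 normalized counts in fWT, 470 to 478 in fKO and 844, 517 and 504 in mKO A, B and C. *Kif1a*, a neuronal kinesin, had 1698 to 1881, 165 to 183 and 803, 168 and 167. For *Nes* the closest were *Stmn4*, *Kdm6a* and *Hs6st2* (0.975, 0.974 and 0.972), for *Sox21* *Nrg2*, *Alg1* and *Glt25d1* (0.954, 0.941 and 0.939), for *Pax6* *Cdh10*, *Kynu* and *Il17rd* (0.903, 0.898 and 0.892), and for *Zic1* *1700010I02Rik*, *Lhx5* and *Gm4841* (0.906, 0.904 and 0.899). *Hes5* and *Neurog2* had means under 10 and were not matched.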

How the data were processed

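Total RNA of EpiLCs was depleted of ribosomal RNA, and 12 libraries, 3 for each of 4 groups, were sequenced. The submitters' processing notes name TopHat2 2.1.0, Bowtie2 2.2.6.0, DESeq and Cuffdiff and the build mm9. The gene annotation and the use of strand in counting are not given in the sources used here. The signal columns that the authors deposited in 2 tables, 1 for each sex, are mean normalized counts of each genotype. The tables also hold the authors' fold changes and p-values, which were not used. No column of another sample was left out.

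Each mean is a sum of whole reads divided by size factors. The reads were solved wherever the mean did not exceed 10000 (22808 of 22911 genes in all libraries, 1 solution each), and the solver was tested on simulated data. The size factors of all 12 libraries lay at 0.988 to 0.999 of median-of-ratios values computed over both sexes, so the tables were treated as scaled jointly. The 5516216 to 11092731 reads per library may include PCR copies. Standard errors and p-values from limma rest on the spread between libraries and not on a model of read counting.

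Limma 3.58.1 (R 4.3.3) with an intensity trend was fitted to log2(normalized count + 1) within each sex, between the controls and, with the interaction of sex and genotype, over all libraries. Genes with at least 1 read in the libraries fitted were tested, with Benjamini-Hochberg adjustment over all of them and a threshold of 0.05. A fold is 2 to the power of the log2 change on that scale and understates the change of low genes. Count models were not used. Alternatives were a pseudocount of 0.1, a minimum mean of 10, limma voom, other scalings, a fit over all 12 libraries and leaving out libraries, of which the sets of 2 or 3 libraries were chosen after seeing the data. Single genes were also compared with exact permutation tests (scipy 1.17.1).

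The members and gene lists were chosen with earlier results of these data known. From each list the 4 genes with the highest mean and the 4 with the largest change among those past the threshold are named, and for each member with a mean of at least 10 the 3 genes with the closest profile. The values of 1 list gene are not reported here. Promoters came from RefSeq (GRCm38.p6), in which all 8 members matched, and were matched to mm9.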

Additional observations from a re-analysis of the deposited data

Results flagged for a closer look

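The change with the knockout differed between the sexes for *Sox1*, by 2.64 on the log2 scale (male change minus female change, limma interaction), for *Neurog2*, by -1.65, and for *Kdm5c* itself, by 0.50 (SE 0.10, limma adjusted p = 0.00347). The value of *Neurog2* rests on 0 to 3 reads a library and depends on the pseudocount, with -4.48 at a pseudocount of 0.1, so it is no measure of a fold. The *Kdm5c* difference passed in all 12 fits without 1 library. Libraries of 3 a group are too few for a test of single outlying libraries.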

How the results depend on the processing

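In females 5 members passed in the fit as reported and under the alternatives, except 4 with a minimum mean of 10 and 3 with a fit over all 12 libraries. In males the count of 0 became 1 with the fit over all 12 libraries, 0 to 3 without 1 library (3 without mKO A) and 5 without mWT B and mKO A, a fit in which 9352 of 21777 genes (42.9%) were called. For the difference between the sexes the count of 2 became 1 with a pseudocount of 0.1 or a minimum mean of 10, 0 to 3 without 1 library and 0 without mWT A and C. In males, between the sexes and between the controls, some uncalled values changed sign. Without 1 library the male log2 change of *Sox1* ran from -1.40 to 0.15, of *Pax6* from -1.63 to 0.38, of *Nes* from -0.39 to 0.15, of *Sox21* from -0.70 to 0.33, of *Hes5* from -1.20 to 0.075 and of *Neurog2* from -0.33 to 0.29. Without mWT A and C it was 0.42 for *Pax6*, 0.079 for *Nes*, 0.058 for *Zic1* and 0.29 for *Neurog2*. For *Sox21* it was 0.38 without mWT B and mKO A and 0.23 without mWT A and C and mKO A. The difference between the sexes ran from -0.86 to 1.15 for *Pax6*, from -0.028 to 0.51 for *Nes* and from -0.58 to 0.34 for *Zic1*, which was at 0.069 with limma voom and 0.61 without mWT A and C. Between the controls *Pax6* ran from -0.24 to 0.47 and *Hes5* from -0.29 to 0.53, and without mWT A and C *Pax6* was at -0.69 and *Zic1* at -0.17. The cause was not tested. No paired analysis was possible because the recovered libraries carry no replicate numbers.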

Other observations

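Markers of further cell types differed between the groups, and none of these lists holds a member. Over all genes tested, 24.7% were called lower and 25.4% higher in fKO, and 7.80% in either direction in mKO. Of 7 fibroblast markers, 4 were called higher and 0 lower in mKO, 4 higher and 1 lower (*Dcn*) without mKO A, and 3 lower and 0 higher in fKO. Their summed level was 4167 to 4663 normalized counts in mKO, 560 to 824 in mWT, 2253 to 2302 in fWT and 749 to 813 in fKO. In mKO this sum was largely *Col1a1* (1900 to 2675) and *Col1a2* (1545 to 1725). Of 5 trophoblast markers, 4 were called higher and 0 lower in mKO, with sums of 847 to 1656 against 171 to 256 in mWT. *Hand1*, a factor of trophoblast and mesoderm that is on both the trophoblast and the mesoderm list, had a male log2 change of 4.68 (limma adjusted p = 0.000136). Of 8 markers of neural crest and surface ectoderm, 4 were called lower and 2 higher in fKO, and 0 in mKO. Of 7 primitive streak and mesoderm markers, 3 were called higher and 1 lower in fKO and 1 higher in mKO, and of 6 neuronal markers 3 were called lower and 1 higher in fKO and 1 in each direction in mKO.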
